A study of Mus musculus with 48 samples.

Results

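Collagens are the main structural proteins of the extracellular matrix. The collagen genes described here are the 39 gene rows whose symbol has the form Col, number, a, number and whose mean level reached at least 1 CPM (counts scaled to a library total of 1e6) over the 12 libraries of any of 4 mouse lines. They are 39 of 44 rows with such a symbol and of 50763 gene rows in each table. Of the 39, 36 reached 1 CPM in the Gas line (astrocytes) and 28 in each of the Gai, Gaq and Ga13 lines (lung fibroblasts). The members just inside the threshold were Col6a4, at a highest line mean of 1.04 CPM, Col19a1 at 1.37 and Col24a1 at 1.51. Just outside lay Col6a5 at 0.797 CPM, Col17a1 at 0.599, Col25a1 at 0.151, Col13a1 at 0.0732 and Col6a6 at 0.0495.

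A collagen is a trimer of alpha chains wound into a helix, made from 1 or several chain genes, so chains of a type are usually needed together. Fibrillar collagens (types I, II, III, V, XI, XXIV and XXVII) form or nucleate the tensile fibrils of connective tissue, and fibril-associated collagens (FACITs, such as types XII, XIV and XVI) sit on their surface. Type IV chains build the sheet of basement membranes, type VI makes beaded filaments beside cells, type VIII and X make short-chain networks, and the multiplexins (types XV and XVIII) lie at basement membranes and release antiangiogenic fragments. Fibroblasts are the chief makers of fibrillar collagen in the lung, and thrombin acting through the receptor PAR1 is known to raise procollagen output in fibroblasts over longer times. By family the 39 genes comprised 11 fibrillar chains, 6 basement membrane chains, 4 beaded filament chains, 9 FACITs, 3 short-chain network chains, 2 multiplexins, the anchoring fibril chain Col7a1, the transmembrane chain Col23a1 and 2 others (Col26a1 and Col28a1).

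Primary cells came from mice heterozygous for a Gas*-, Gai*-, Gaq*- or Ga13*-BERKY3 allele, which encodes a sensor of an active G protein that Cre recombinase switches on. Brain astrocytes were used for the Gas line and lung fibroblasts for the other lines. Each culture received an adeno-associated virus, either AAV2/1-CMV-Cre or AAV2/1-CMV-empty, at a dilution of 500-fold for astrocytes and 1000-fold for fibroblasts, so the empty virus controls carried the same allele and a virus. For the last 90 min the medium held either no agonist, 1 µM isoproterenol (an agonist of beta-adrenergic receptors, for astrocytes) or 100 µM TRAP-6 (a peptide agonist of PAR1, for fibroblasts). Each line thus had 4 groups of 3 libraries (unstimulated or stimulated, empty or Cre virus), 48 libraries in all, of poly-A selected RNA. The CMV promoter drives Cre in any transduced cell type. The age and number of mice are not given in the sources used here, and nothing says that the 3 libraries of a group came from separate cultures or mice. All p-values therefore measure the spread between these libraries, which may be technical.

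Libraries held 15.6 to 42.6 M counts (units of 1e6). The biosensor row stayed at or below 1.05 CPM in every empty virus library and reached 19.1 to 27.3 CPM with Cre in astrocytes and 74.3 to 137 CPM in fibroblasts, as the virus labels say. Of the fibroblast markers, the 7 that are no collagens summed to 1558 to 2045 CPM in the fibroblasts, with none at 0. The astrocyte cultures held 8858 to 9728 CPM of 9 astrocyte markers, against 171 to 300 CPM in the fibroblasts, but also 268 to 325 CPM of those 7 fibroblast markers, with Tcf21 at 0. Which cells of the astrocyte cultures carried the collagen counts was not tested, and in bulk RNA fewer cells of a type and less RNA per cell cannot be told apart. Some libraries stood apart. Replicate 1 of all 4 Gai groups was higher than replicates 2 and 3 for most collagens, and replicate 1 of the stimulated Cre group of the Gas line had the lowest collagen share of that line (0.528% of counts).

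The share of all counts that fell on the 39 collagen genes was 0.528% to 0.669% in the astrocytes, 4.36% to 5.91% in Gai, 5.27% to 6.43% in Gaq and 6.42% to 6.83% in Ga13 fibroblasts. In the Gai line replicate 1 held 5.62%, 5.87%, 5.91% and 5.66% in the 4 groups, while the other 8 libraries lay between 4.36% and 4.94%. In the Gaq line the empty virus libraries held 5.27% to 5.56% and the Cre libraries 5.83% to 6.43%, with no overlap. The Ga13 groups overlapped except under the Cre virus, where unstimulated libraries held 6.58% to 6.83% and stimulated libraries 6.42% to 6.56%.

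**Figure D1:**
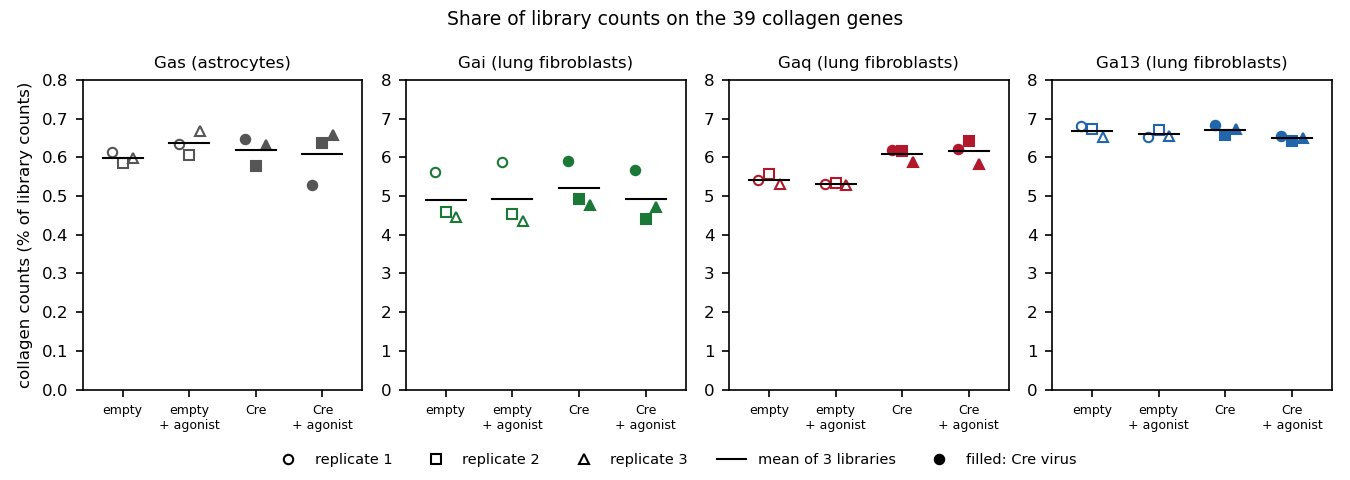
Share of library counts on the 39 collagen genes (percent of counts, vertical axis from 0 in each panel) for the 4 groups of each line, with 1 symbol per library and a bar at the mean of 3. The Gaq Cre libraries lie above the empty virus libraries, and replicate 1 lies above the other replicates in every Gai group.

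Levels of different genes were compared per length, as CPM per kb of the principal transcript (mean ± SD over the 12 libraries of a line). On this length the fibroblast order was the same in every line: Col1a1, then Col1a2 (both chains of type I), Col3a1 (type III), Col5a2 (a type V chain, which starts fibrils) and Col4a1 (a basement membrane chain). In Ga13 these stood at 3736 ± 108, 2655 ± 60.7, 1657 ± 63.9, 1426 ± 29.6 and 443 ± 8.07 CPM per kb. The Gaq values were 3103 ± 246, 2394 ± 182, 1397 ± 273, 1288 ± 48.6 and 400.1 ± 17.8 CPM per kb. The Gai values were 2365 ± 362, 1917 ± 285, 1381 ± 279, 1264 ± 77.3 and 366 ± 12.9 CPM per kb. Col3a1 and Col5a2 were neighbours whose ranges overlapped in the Gai and Gaq lines and did not in Ga13, whereas Col5a2 stood above Col4a1 without overlap in each line. The order depends on the length used. Per length of all exons together Col5a2 stood above Col3a1 in all 3 fibroblast lines and above Col1a2 in Gai, while Col1a1 stayed the highest in each line.

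The astrocyte order was flatter. There Col1a1 reached 149 ± 16.6, Col5a2 109 ± 6.25, Col1a2 103 ± 9.16, Col4a5 67.6 ± 2.41 and Col4a1 66.3 ± 5.30 CPM per kb. The ranges of Col5a2 and Col1a2 overlapped, as did those of Col4a5 and Col4a1. Per length of all exons Col1a2 ranked 6 there, behind Col1a1, Col5a2, Col4a5, Col4a1 and Col12a1. Fibrillar chains made up 50.6% of the summed collagen level per kb in the astrocytes and 86.1%, 87.8% and 88.5% in the Gai, Gaq and Ga13 fibroblasts. Basement membrane chains made up 23.7% in the astrocytes and 8.74%, 8.16% and 7.72% in the fibroblasts. These differences between cell types were not tested, since line, tissue and culture differ together.

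Some collagens stood higher in the astrocytes. Col4a6, a basement membrane chain, reached 52.7 CPM per kb there and 3.83 to 4.97 in the fibroblast lines, and Col18a1, a multiplexin, 50.3 against 8.70 to 10.8. The cartilage-type chains Col2a1, Col9a1, Col9a2 and Col9a3 stood at 3.78, 1.59, 1.31 and 9.58 CPM per kb in the astrocytes. In the fibroblast lines the means of Col2a1, Col9a1 and Col9a2 were at most 0.0442 CPM per kb, Col9a1 was listed at 0 in every Gaq and Ga13 library, and Col9a3 was at most 0.541. Col22a1, a FACIT, and Col26a1 stood at 2.34 and 2.87 CPM per kb in the astrocytes and at most 0.0387 in the fibroblasts. Col2a1, Col9a1, Col9a2, Col22a1 and Col26a1 reached the threshold of 1 CPM in the astrocytes only. They are members through that level, so their being higher there is no independent result. Beside these, the cartilage marker list, which shares Col2a1 with the members and Sox9 with the astrocyte list, summed to 284 to 339.5 CPM in the astrocytes, of which Sox9 alone averaged 274 to 299 CPM by group. In the other direction Col14a1, Col15a1 and Col28a1 averaged 4.05, 2.39 and 0.223 CPM in the astrocytes and 181, 24.2 and 127 CPM in the Gai fibroblasts. Col28a1 reached the threshold in the fibroblasts only.

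**Figure D2:**
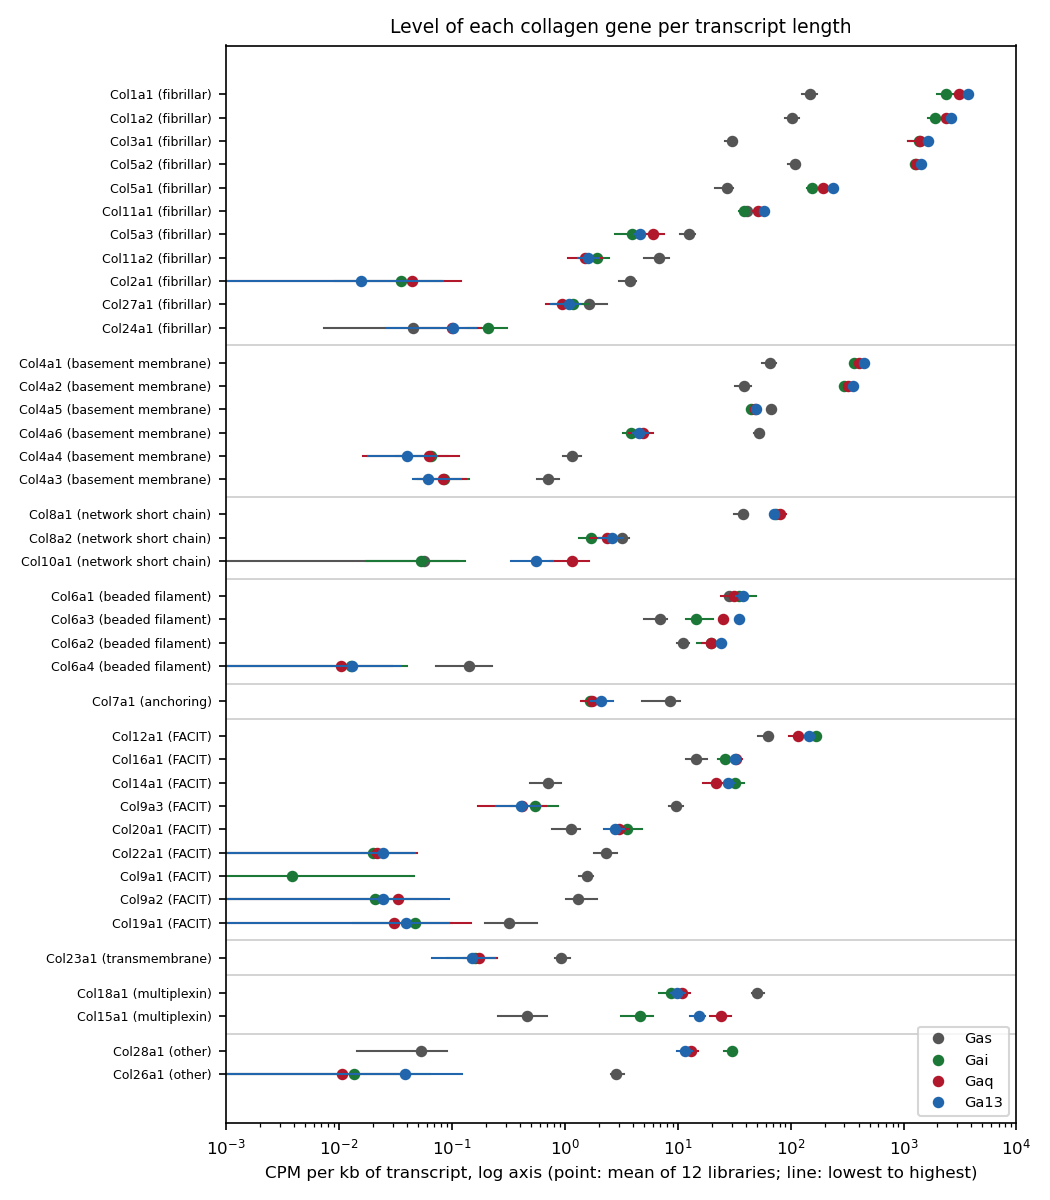
Level of each of the 39 collagen genes in CPM per kb of transcript (log axis), with a point at the mean of the 12 libraries of a line and a horizontal line from the lowest to the highest library. A line that meets the left edge reaches 0, and Col9a1 has no point for Gaq and Ga13, where it was at 0. The fibroblast lines lie together for the high fibrillar chains, and the astrocytes lie above them for Col4a6, Col18a1, Col2a1 and the type IX chains.

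Chains that share a trimer were also set against each other. The ratio of Col1a1 to Col1a2 per kb averaged 1.44 in the astrocytes and 1.23, 1.30 and 1.41 in Gai, Gaq and Ga13, with a range within Ga13 of 1.38 to 1.44. Per length of all exons together it was 3.02, 2.59, 2.72 and 2.95, so its size depends on the length used. Its order between lines is the same by construction, since a length scales every line by the same factor. Col4a1 and Col4a2, which start 21 bp apart on opposite strands, had a ratio of 1.72 in the astrocytes and 1.22, 1.24 and 1.25 in the fibroblasts. The Col5a2 to Col5a1 ratio was 4.02, 8.16, 6.69 and 6.06 in Gas, Gai, Gaq and Ga13. Per length of all exons it was 2.81, 5.69, 4.67 and 4.23. Within type VI the ratio of Col6a3 to Col6a1 differed more, at 0.245 in the astrocytes, 0.422 in Gai, 0.815 in Gaq and 0.928 in Ga13. The type VIII pair Col8a1 to Col8a2 stood at 12.0, 44.8, 35.2 and 27.9, and per length of all exons at 8.09, 30.3, 23.8 and 18.9. The sizes of the type IV and type VI ratios depend on the length used as well.

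Few collagens passed in the isoproterenol response of the astrocytes. Of 36 collagens tested, 3 rose and 0 fell, which is 8.33%, while 23.3% of all 18103 genes tested passed (edgeR quasi-likelihood test, Benjamini-Hochberg adjusted p under 0.05, mean of both viruses). Of the 36, 32 had a positive log2 difference, with a median of 0.08 against -0.00 over all genes. Col16a1 stood at 62.2, 62.3 and 67.6 CPM without agonist and 77.1, 84.9 and 89.0 CPM with isoproterenol under the empty virus, and at 78.0, 66.4 and 74.6 and 69.9, 85.4 and 94.3 CPM under the Cre virus. Under the empty virus all 3 stimulated libraries of this FACIT lay above all unstimulated ones, and under the Cre virus the groups overlapped. Its log2 difference was 0.34 ± 0.07 (SE, edgeR adjusted p = 0.000594).

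Col6a2 stood at 39.8, 38.6 and 42.3 CPM without agonist and 44.5, 45.1 and 49.6 CPM with isoproterenol under the empty virus, and at 40.8, 43.4 and 47.0 and 39.9, 46.4 and 48.4 CPM under the Cre virus. This type VI chain likewise separated under the empty virus and overlapped under Cre, where stimulated replicate 1 was the lowest library, with a log2 difference of 0.17 ± 0.05 (edgeR adjusted p = 0.0181). Col2a1 stood at 16.2, 20.5 and 15.4 CPM without agonist and 20.9, 19.8 and 20.8 CPM with isoproterenol under the empty virus, and at 18.5, 18.9 and 20.3 and 17.3, 21.3 and 21.6 CPM under the Cre virus. The groups of this cartilage fibril chain overlapped under either virus, and the log2 difference was 0.21 ± 0.07 (edgeR adjusted p = 0.0409). Leaving out 1 library ended the Col2a1 call for 8 of the 12 libraries (edgeR adjusted p up to 0.146) and the Col6a2 call for 3 (up to 0.0793), namely stimulated empty replicate 3 and stimulated Cre replicates 2 and 3. The partner chains of type VI did not pass: Col6a1 had 0.10 ± 0.05 (edgeR adjusted p = 0.128) and Col6a3 0.04 ± 0.13 (edgeR adjusted p = 0.877).

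The high fibrillar chains did not pass in the astrocytes. Col1a1 stood at 887, 773 and 771 CPM without agonist and 943, 853 and 1000.4 CPM with isoproterenol under the empty virus, and at 1009.8, 761 and 919.9 and 753, 937 and 988 CPM under the Cre virus. The groups overlapped, and the log2 difference was 0.15 (95% interval -0.05 to 0.34). Col1a2 stood at 551, 507 and 514 CPM without agonist and 599, 524 and 604 CPM with isoproterenol under the empty virus, and at 629, 499 and 571 and 475, 564 and 598 CPM under the Cre virus, a log2 difference of 0.09 (95% interval -0.06 to 0.24). Col3a1 stood at 169, 157 and 159 CPM without agonist and 177, 158 and 177 CPM with isoproterenol under the empty virus, and at 183, 159.9 and 166 and 145, 179 and 180.0 CPM under the Cre virus, and its log2 difference was 0.08 (95% interval -0.02 to 0.19). Beside these responses, the 10 meningeal fibroblast markers summed to 41.1 to 48.8 CPM without and 76.8 to 79.9 CPM with isoproterenol, with Slc22a6 at 0 in every group. In that list Foxc1 and Foxc2 rose (1.27 and 1.46), and Aldh1a2, Crabp2, Dcn, Foxd1, Lum and Ptgds did not pass. The pericyte and fibroblast marker Pdgfrb fell by 0.93 on the log2 scale. Their part in the collagen values was not tested. For Col1a1, Col1a2 and Col3a1 replicate 1 of the stimulated Cre group was the lowest of the 12 libraries. Without that library 12 collagens rose and 0 fell, among them Col3a1, Col6a1, Col12a1 and Col18a1. The count was 1 when replicate 3 of the stimulated empty group or replicate 2 or 3 of the stimulated Cre group was left out. The shares of all genes that passed in these fits are not given here, so these counts cannot be set against them. Of the 36 collagens, 0 passed for a response that differed between viruses (0% of all genes, 1 at an unadjusted p under 0.05, Col22a1 with a log2 difference of -0.31, 0 by DESeq2).

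Genes that act on collagen were described from lists beside the family, and their counts stand beside the 23.3% of all genes that passed in this response. Of 20 modifying enzymes and chaperones 4 rose and 3 fell by the same edgeR test, with Mia3, which loads procollagen for export from the endoplasmic reticulum, at a log2 difference of 0.82 ± 0.04, the lysyl hydroxylases Plod3 at 0.40 and Plod2 at -0.12, and the prolyl hydroxylase subunit P4ha2 at -0.35. Of 12 processing and crosslinking genes 2 rose, the lysyl oxidase Loxl3 by 0.36 and the procollagen C-proteinase Bmp1 by 0.12. Of 8 receptors 3 rose, the collagen-binding integrin chains Itga11 (0.71) and Itga2 (0.29) and the endocytic receptor Mrc2 (0.19). Of 14 fibril partners 7 rose and 0 fell, among them the thrombospondins Thbs1 (1.08 ± 0.05) and Comp (2.33 ± 0.34) and the matrix proteins Sparc (0.12) and Prelp (0.16). Of 8 TGF-beta ligands and early targets 5 fell and 0 rose, with the repressor Tgif1 at -0.91, the inhibitor Smad7 at -0.33, the matricellular Ccn2 at -0.19 and the repressor Skil at -0.17.

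Few collagens passed in the TRAP-6 response of the fibroblasts. In the Gai line 0 of 31 tested collagens passed, where 1.12% of all genes did (edgeR). At an unadjusted p under 0.05 there were 2, Col20a1 (0.36 ± 0.11, edgeR adjusted p = 0.179) and Col9a3 (0.48 ± 0.21, edgeR adjusted p = 0.453), and DESeq2 passed 0. In the Gaq line 1 of 32 rose (3.12%, against 5.61% of all genes), and in the Ga13 line 1 of 32 (3.12%, against 8.38%). Both were Col12a1, a FACIT that bridges fibrils.

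Col12a1 stood at 1308, 1107 and 1356 CPM without agonist and 1317, 1355 and 1382 CPM with TRAP-6 under the empty virus, and at 1296, 1339 and 1400.2 and 1421, 1447 and 1452 CPM under the Cre virus in the Gaq line. The stimulated Cre libraries lay above all unstimulated Cre libraries and the empty virus groups overlapped, with 1 low unstimulated library, replicate 2. The log2 difference was 0.14 ± 0.04 (edgeR adjusted p = 0.0167), and it was not called when unstimulated Cre replicate 1 or stimulated empty replicate 3 was left out. Col12a1 stood at 1621, 1649.9 and 1653 CPM without agonist and 1679, 1645 and 1747 CPM with TRAP-6 under the empty virus, and at 1701, 1539 and 1691 and 1699.6, 1731 and 1814 CPM under the Cre virus in the Ga13 line. These groups overlapped slightly under either virus, and the log2 difference was 0.10 ± 0.03 (edgeR adjusted p = 0.00528). In the Gai line Col12a1 had a log2 difference of 0.03 (95% interval -0.08 to 0.15). A difference between lines was not shown: 0 of 32 collagens passed the test that the response differed between the 3 fibroblast lines, where 0.299% of all genes did (edgeR adjusted p = 0.92 for Col12a1, 1 at an unadjusted p under 0.05, Col20a1, and 0 by DESeq2).

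Cell type markers moved with TRAP-6 in the Gaq and Ga13 lines, and their response in the Gai line is not given here. Of the 9 smooth muscle and pericyte markers, none at 0, 3 rose in Gaq and 2 rose and 1 fell in Ga13, with Acta2, smooth muscle actin, at 0.15 and 0.23. Their sum in Ga13 was 2855 to 3143 CPM without and 3222 to 3456 CPM with TRAP-6 under the empty virus, and 2762 to 2913 and 3082 to 3210.2 CPM under Cre. The 7 fibroblast markers that are no collagens were lower with TRAP-6 without overlap under the empty virus, at 1831 to 1865 and 1687 to 1761 CPM in Gaq and 1988 to 2045 and 1803 to 1856 CPM in Ga13, and overlapped under Cre. Pdgfra, a growth factor receptor in both the fibroblast and the oligodendrocyte list, fell (-0.14 and -0.18). The 9 oligodendrocyte lineage markers, with Olig1, Olig2 and Mog at 0, were lower without overlap under either virus, at 399 to 413 and 350.2 to 356 CPM in Gaq and 387 to 425 and 307 to 345 CPM in Ga13 under the empty virus. The 9 astrocyte markers were higher without overlap under either virus, at 194 to 198 and 208 to 226 CPM in Gaq and 178 to 193 and 199.8 to 218 CPM in Ga13 under the empty virus, with Aqp4 at 0 in these groups and the gap junction gene Gja1 the member that passed (0.41 and 0.55). The part of these markers in the Col12a1 values was not tested.

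**Figure D3:**
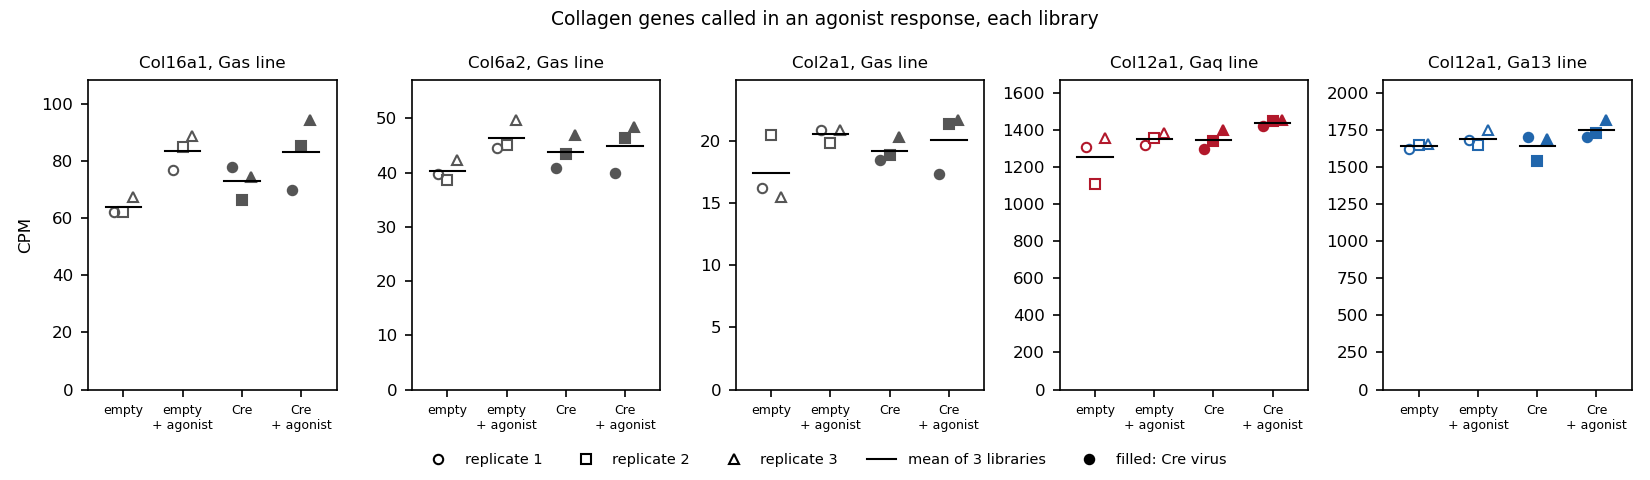
CPM in each library (vertical axes from 0) of the collagens that passed in an agonist response: Col16a1, Col6a2 and Col2a1 in the Gas line and Col12a1 in the Gaq and Ga13 lines, by group, with a bar at the mean of 3. Stimulated Col16a1 libraries lie above unstimulated ones under the empty virus, and the shift in Col12a1 is small beside its level of more than 1000 CPM.

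The high fibrillar chains did not pass in any fibroblast line, and their intervals were narrow in Gaq and Ga13. In Ga13 the log2 response was -0.00 (95% interval -0.05 to 0.04) for Col1a1, 0.00 (95% interval -0.04 to 0.04) for Col1a2 and -0.00 (95% interval -0.05 to 0.05) for Col3a1. In Gaq the same genes gave 0.03 (95% interval -0.02 to 0.09), 0.03 (95% interval -0.03 to 0.09) and -0.00 (95% interval -0.09 to 0.08). In Gai the intervals were wider: -0.02 (95% interval -0.29 to 0.25), -0.01 (95% interval -0.26 to 0.25) and -0.07 (95% interval -0.42 to 0.29). When replicate 1 was left out of all 4 Gai groups, an alternative chosen after the data were seen, 6 of the collagens passed in that line, where 4.39% of all genes did: Col20a1 was higher and Col3a1, Col5a3, Col6a1, Col8a1 and Col28a1 were lower with TRAP-6.

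Col1a1 stood at 23006, 22587 and 21429 CPM without agonist and 22253, 22534 and 21425 CPM with TRAP-6 under the empty virus, and at 23084, 22139 and 22611 and 22111, 21310.2 and 21366 CPM under the Cre virus in the Ga13 line. Col1a2 stood at 14513, 14374 and 14049 CPM without agonist and 13960.4, 14464 and 14044 CPM with TRAP-6 under the empty virus, and at 14802, 14175 and 14407 and 14091, 13632 and 13859.8 CPM under the Cre virus there. Col3a1 stood at 9344, 9477 and 9543 CPM without agonist and 8448, 9220.3 and 9542 CPM with TRAP-6 under the empty virus, and at 9233, 8992 and 9534 and 8744, 9017 and 9516 CPM under the Cre virus. Under the empty virus the groups of each gene overlapped. With Cre all stimulated Col1a1 and Col1a2 libraries lay below all unstimulated ones, and Col3a1 overlapped. Neither type I chain passed for the response under Cre alone (edgeR). In the Gai line, Col1a1 stood at 16260.1, 12663 and 11888 CPM without agonist and 17044, 12353 and 11672 CPM with TRAP-6 under the empty virus, and at 17175, 14016 and 13315 and 16627, 11969 and 13292 CPM under the Cre virus. Col1a2 stood at 11983, 9087 and 8862 CPM without agonist and 12509.7, 9029 and 8807 CPM with TRAP-6 under the empty virus, and at 12612, 9961 and 9610.0 and 11879.7, 9026 and 9685 CPM under the Cre virus there. Col3a1 stood at 9553, 6866 and 6372 CPM without agonist and 9865, 6431 and 6069 CPM with TRAP-6 under the empty virus, and at 10198, 7262 and 7295 and 9221, 6243 and 6862 CPM under the Cre virus. In each of these Gai groups replicate 1 was the highest library, and the groups overlapped.

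Of the other lists in the TRAP-6 response, 0 of 18 modifying enzymes, 12 processing genes, 8 receptors, 14 fibril partners and 8 TGF-beta genes passed in Gai (edgeR). At an unadjusted p under 0.05 the counts were 0, 0, 2, 2 and 2. In Gaq the fibril partner Thbs1 rose by 0.17 and 3 TGF-beta genes rose, among them Tgfb2, a ligand, by 0.43 and Ccn2 by 0.18, while 0 of 19, 12 and 8 genes of the other lists passed (0, 1 and 2 at an unadjusted p under 0.05). In Ga13 the integrin chain Itgb1 rose by 0.08 and Thbs1 by 0.13. There 4 TGF-beta genes rose, among them Tgfb2 at 0.60, Ccn2 at 0.21 and Tgfb3 at 0.19, and 2 fell.

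In the Gaq line many collagens differed between the Cre and the empty virus. Averaged over both agonist states, 17 of 32 tested collagens passed (53.1%), 13 higher and 4 lower with Cre, where 6.50% of all 15528 genes passed, 3.68% higher and 2.82% lower (edgeR quasi-likelihood test). The median log2 difference of the 32 was 0.11, against -0.00 over all genes tested. Of 10 fibrillar chains tested 6 were higher and 1 lower, of 6 basement membrane chains 1 was higher and 2 lower, and all 3 beaded filament chains tested were higher. Of 5 FACITs 1 was higher, of 3 network chains 1, and of the 2 multiplexins 1 was higher and 1 lower. Cre recombinase and the biosensor it switches on cannot be told apart in this design.

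The letters upstream of collagens on either side of this difference are shown to let their start regions be compared. Each is the 120 bases before a RefSeq start site (GRCm38.p6, read 5′ to 3′ on the gene's strand), and capitals mark a match to a searched motif on either strand. Col3a1, Col5a1 and Col6a2 (1 of 2 start sites in the table) rose with Cre, and Col15a1 and Col5a3 fell.
Col3a1, chr1:45311418-45311537, plus strand: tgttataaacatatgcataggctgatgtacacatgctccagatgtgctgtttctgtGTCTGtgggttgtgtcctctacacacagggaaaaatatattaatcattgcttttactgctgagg
Col5a1, chr2:27886305-27886424, plus strand: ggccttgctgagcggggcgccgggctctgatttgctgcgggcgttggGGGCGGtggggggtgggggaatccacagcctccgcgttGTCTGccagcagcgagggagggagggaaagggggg
Col6a2, chr10:76623631-76623750, minus strand: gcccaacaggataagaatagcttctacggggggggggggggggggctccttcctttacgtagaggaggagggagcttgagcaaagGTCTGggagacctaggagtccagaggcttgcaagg
Col15a1, chr4:47207892-47208011, plus strand: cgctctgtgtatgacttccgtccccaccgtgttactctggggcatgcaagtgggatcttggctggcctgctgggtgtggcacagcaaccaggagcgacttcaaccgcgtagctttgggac
Col5a3, chr9:20815068-20815187, minus strand: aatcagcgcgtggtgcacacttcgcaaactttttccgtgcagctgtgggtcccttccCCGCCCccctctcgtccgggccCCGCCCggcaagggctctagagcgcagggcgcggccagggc
The searched motifs were a CCAAT box (CCAAT), a GC box (GGGCGG), an AP-1 site (TGANTCA) and a SMAD element (CAGAC), on both strands. Of the 39 collagens 30 were in the RefSeq table, with 33 windows of 250 bases before a start, and 11, 19, 1 and 16 of these windows held the motifs. Of all 32851 windows of that length 33.8%, 32.7%, 6.75% and 42.2% did. Of the stretches shown, those of Col3a1 and Col6a2 held a SMAD element match, Col5a1 a GC box and a SMAD element match, Col5a3 a pair of GC boxes, and Col15a1 none of the 4. These matches are descriptions of letters, and the stretches shown are a selection. Of other collagens that rose, Col1a2, Col4a5, Col6a1, Col6a3, Col18a1 and Col27a1 held no SMAD element match in their 120 bases. The other Col6a2 start held none either, while Col8a1, which also rose, held 1. Col4a1 and Col4a2, which fell, held none.

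Col3a1, the type III fibril chain, stood at 6574, 6727 and 6499.8 CPM in the unstimulated and 6132, 6149 and 6245 CPM in the stimulated empty virus libraries, against 9260.3, 9517 and 8610.3 and 9657, 9773 and 8140.0 CPM with Cre. Every Cre library lay above every empty virus library, and the log2 difference was 0.53 ± 0.04 (edgeR adjusted p = 6.22e-07). Col6a1, the alpha-1 chain of beaded filaments, stood at 108, 108 and 114 CPM in the unstimulated and 99.0, 103 and 106 CPM in the stimulated empty virus libraries, against 142, 154 and 146 and 161, 170.3 and 144 CPM with Cre. The groups did not overlap, with a log2 difference of 0.53 ± 0.04 (edgeR adjusted p = 2.18e-11). Its partner Col6a2 stood at 66.6, 71.1 and 68.7 CPM in the unstimulated and 64.7, 64.4 and 71.8 CPM in the stimulated empty virus libraries, against 85.6, 89.8 and 90.0 and 88.3, 88.2 and 80.3 CPM with Cre. The Cre libraries were again all higher, by a log2 difference of 0.37 ± 0.04 (edgeR adjusted p = 6.69e-08). Col6a3, the third chain, had a smaller log2 difference of 0.11 ± 0.03 (edgeR adjusted p = 0.0341).

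Col14a1, a FACIT that coats fibrils, stood at 95.3, 98.1 and 99.9 CPM in the unstimulated and 106, 108 and 105 CPM in the stimulated empty virus libraries, against 142, 153 and 139 and 156, 152 and 133 CPM with Cre. No Cre library reached down to the empty virus range, and the log2 difference was 0.52 ± 0.04 (edgeR adjusted p = 3.3e-11). The other FACITs tested did not pass: Col12a1 had 0.10 ± 0.04 (edgeR adjusted p = 0.112) and Col16a1 -0.06 ± 0.04 (edgeR adjusted p = 0.487).

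The type I chains were higher by less. Col1a1 stood at 17229, 18381 and 16702 CPM in the unstimulated and 16912, 16978 and 16727 CPM in the stimulated empty virus libraries, against 19711, 19739 and 18744 and 19692, 20937 and 19063 CPM with Cre. Col1a2 stood at 12021, 12407 and 11742 CPM in the unstimulated and 11856, 12025 and 11741 CPM in the stimulated empty virus libraries, against 13921, 13945 and 13009 and 13922, 14231 and 12809.7 CPM with Cre. In both genes the lowest Cre library lay above the highest empty virus library. The log2 differences were 0.20 ± 0.03 (edgeR adjusted p = 8.84e-06) for Col1a1 and 0.20 ± 0.03 (edgeR adjusted p = 2.02e-05) for Col1a2. Because Col3a1 moved further than Col1a1, the ratio of Col3a1 to Col1a1 per kb was 0.404 and 0.390 in the empty virus groups and 0.501 and 0.492 in the Cre groups, without and with agonist. Its libraries ranged from 0.386 to 0.415 with the empty virus and from 0.455 to 0.523 with Cre. Col5a1, a type V chain, stood at 1534, 1561 and 1495 CPM in the unstimulated and 1551, 1561 and 1519 CPM in the stimulated empty virus libraries, against 1743, 1715 and 1693 and 1690.5, 1748 and 1624 CPM with Cre. Its groups did not overlap, with a log2 difference of 0.15 ± 0.03 (edgeR adjusted p = 0.00027), while its partner Col5a2 had 0.09 ± 0.03 (edgeR adjusted p = 0.044).

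Lower with Cre was Col15a1, a multiplexin, which stood at 142, 143 and 126 CPM in the unstimulated and 152, 151 and 138 CPM in the stimulated empty virus libraries, against 116, 119 and 106 and 110.1, 99.0 and 104 CPM with Cre. All Cre libraries lay below all empty virus libraries, and the log2 difference was -0.37 ± 0.04 (edgeR adjusted p = 3.46e-07). The basement membrane pair Col4a1 and Col4a2 fell by similar amounts, with log2 differences of -0.11 ± 0.03 and -0.11 ± 0.03 (edgeR adjusted p = 0.00528 and 0.00597). Col4a1 stood at 2765, 2728 and 2765 CPM in the unstimulated and 2739.7, 2742 and 2781 CPM in the stimulated empty virus libraries, against 2553, 2500.4 and 2587 and 2514, 2612 and 2475 CPM with Cre, again without overlap. Col5a3, the less common type V chain, fell by 0.19 on the log2 scale. The remaining collagens that rose were Col4a5 (0.14), Col8a1 (0.20), Col18a1 (0.16) and the low fibrillar chain Col27a1 (0.40). Of the 15 tested collagens that did not pass, log2 differences ran from -0.75 (Col24a1, at a mean of 0.714 CPM) upward.

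The difference was present in either agonist state. Without TRAP-6, 9 of 32 collagens passed (28.1%, 7 higher, against 2.65% of all genes), and with TRAP-6 10 passed (31.2%, 9 higher, against 3.41%). Col3a1 had a log2 difference of 0.47 ± 0.06 without and 0.58 ± 0.06 with TRAP-6, and Col6a1 0.42 ± 0.06 and 0.63 ± 0.06. No collagen passed the test that the Cre difference depended on the agonist: 0 of 32, where 0.161% of all genes did (edgeR). At an unadjusted p under 0.05 there were 5, Col5a3, Col6a1, Col7a1, Col15a1 and Col20a1, and DESeq2 passed 0. Leaving out 1 library at a time gave 12 to 19 collagens for the mean of both states, with the fewest without stimulated empty replicate 1. The calls of Col5a2, Col5a3, Col6a3, Col18a1 and Col27a1 were lost when any 1 of 3 to 8 libraries was left out, with a highest edgeR adjusted p of 0.0624 for Col27a1 to 0.178 for Col18a1.

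**Figure D4:**
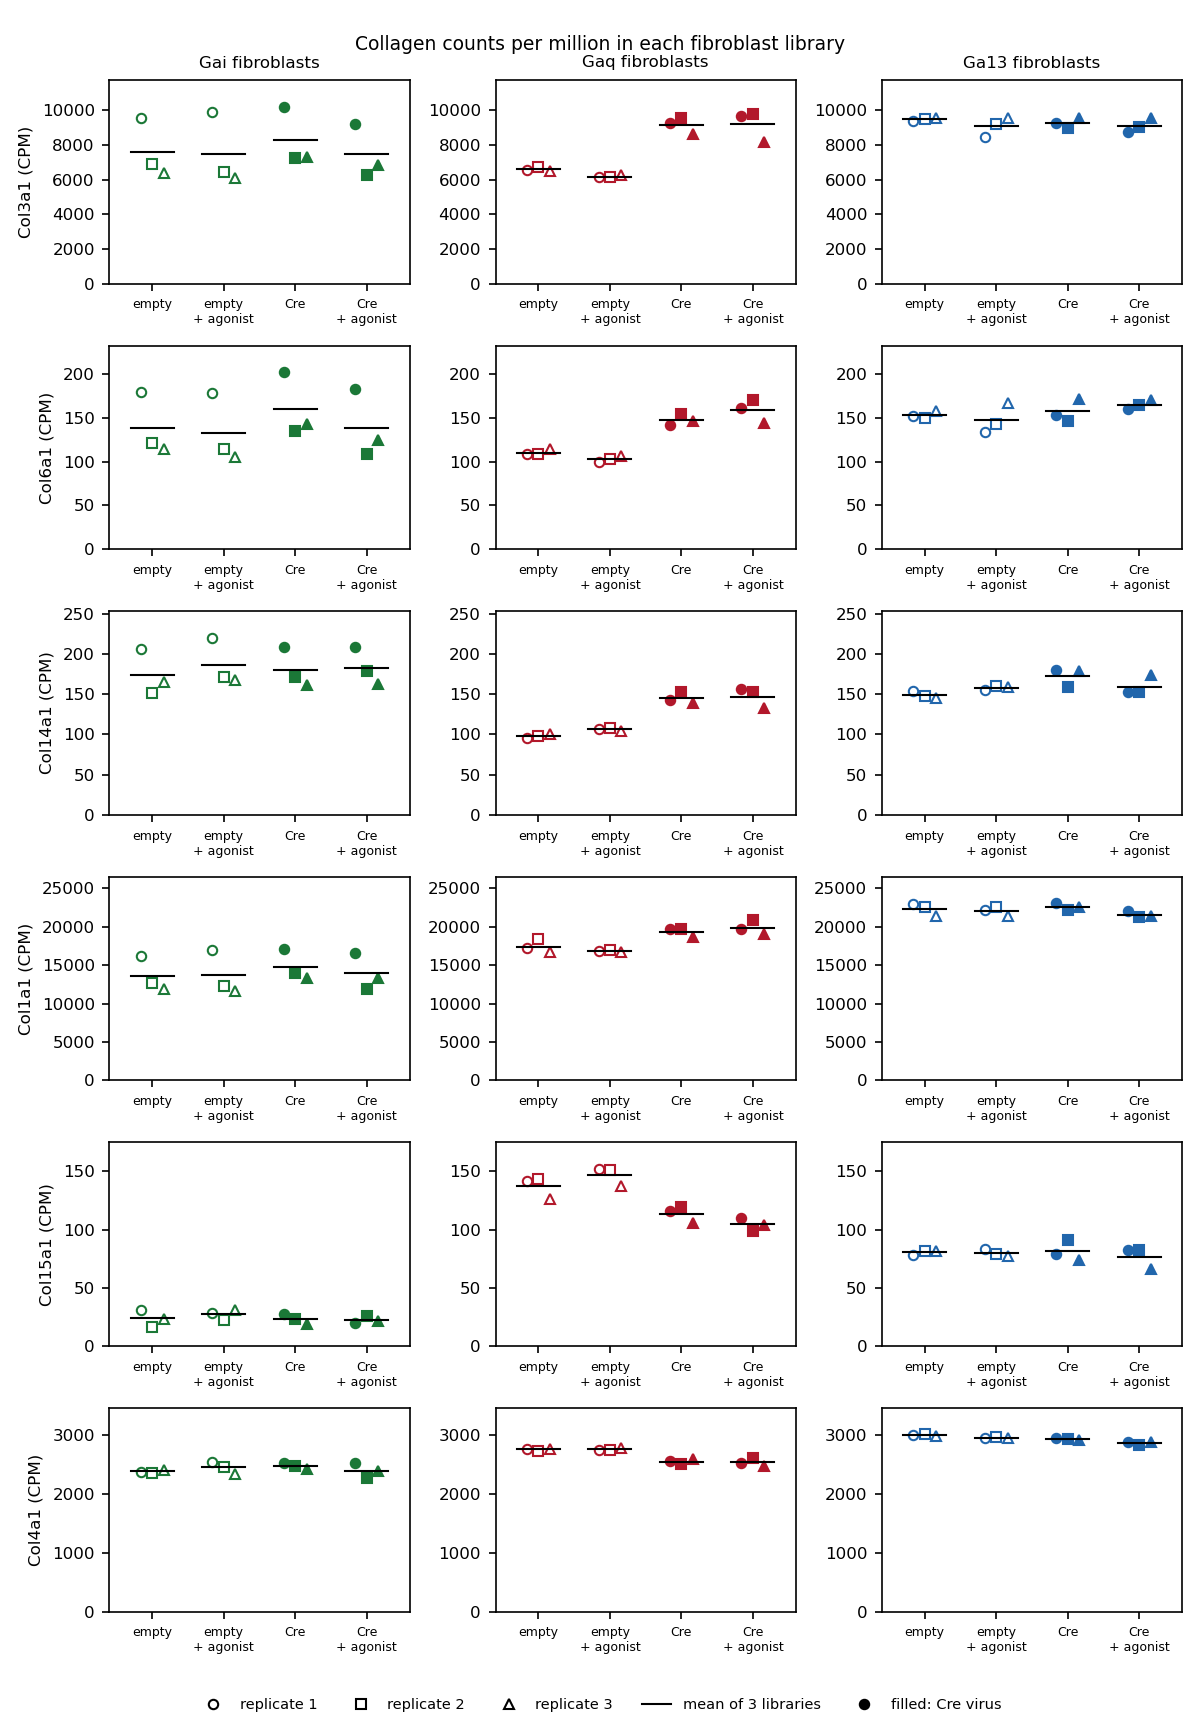
CPM of Col3a1, Col6a1, Col14a1, Col1a1, Col15a1 and Col4a1 in each fibroblast library (rows share a vertical axis from 0, columns are the Gai, Gaq and Ga13 lines), by group, with a bar at the mean of 3. In Gaq the Cre groups lie above the empty virus groups for Col3a1, Col6a1, Col14a1 and Col1a1 and below for Col15a1 and Col4a1, and in Gai replicate 1 is the highest for Col3a1, Col6a1, Col14a1 and Col1a1.

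Other genes of the collagen pathway also differed between the viruses in the Gaq line, and the genes named here were chosen after their values were seen. Their counts stand beside the 6.50% of all genes that passed. Of 19 modifying enzymes and chaperones 6 were higher and 1 lower with Cre (edgeR), among them the collagen chaperone Serpinh1 (0.13) and the hydroxylase genes P4ha3 (0.40) and Plod2 (0.22). Of 12 processing and crosslinking genes 5 were higher and 1 lower, among them the N-proteinase Adamts2 (0.25) and the lysyl oxidase Lox (0.14). Of 15 fibril partners 9 were higher and 1 lower. The small leucine-rich proteoglycans Ogn (0.95 ± 0.08), Aspn (0.72) and Fmod (0.55) rose and Thbs1 fell by 0.25. Of 8 receptors 2 were higher and 1 lower, and of 8 TGF-beta genes 1 was higher (Tgfb2, 0.36) and 2 lower (among them Tgfb1, -0.32).

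Markers of cell types moved with this difference. The 6 mesothelium markers summed to 380 to 471 and 395 to 486 CPM in the unstimulated and stimulated empty virus groups of the Gaq line and to 488 to 554 and 537 to 583 CPM in the Cre groups, with none at 0 in any group, and Krt7, Lrrn4 and Upk3b passed (0.56, 0.50 and 0.36). The 7 fibroblast markers that are no collagens summed to 1831 to 1865 and 1687 to 1761 CPM with the empty virus and 1900 to 2014 and 1844 to 1989 CPM with Cre. The 9 smooth muscle and pericyte markers summed to 1861 to 2022 CPM with the empty virus and 1886 to 2325 CPM with Cre, with Cspg4 lower (-0.54) and Notch3 higher (0.42). The 6 cartilage markers were lower with Cre without overlap, at 87.8 to 99.7 and 85.7 to 106 CPM with the empty virus and 69.0 to 75.7 and 75.4 to 84.6 CPM with Cre, where Sox9 was the member that passed (-0.31) and Matn1 or Cnmd was at 0 in 3 of the 4 groups. The 9 oligodendrocyte lineage markers, with Olig1, Olig2 and Mog at 0, were higher with Cre, at 399 to 413 and 350.2 to 356 CPM with the empty virus and 424 to 445 and 373 to 408 CPM with Cre, and Pdgfra was the member that passed (0.14). The part of these markers in the collagen difference was not tested.

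In the other lines no collagen passed for Cre against empty virus (edgeR). The counts were 0 of 36 in Gas (0.0552% of all genes, 4 at an unadjusted p under 0.05, Col8a1, Col9a3, Col11a1 and Col11a2), 0 of 31 in Gai (0.00626%, 0 unadjusted) and 0 of 32 in Ga13 (0.0568%, 7 unadjusted), and DESeq2 passed 0 in each. For Col3a1 the log2 difference was 0.05 (95% interval -0.30 to 0.41) in Gai and -0.02 (95% interval -0.07 to 0.03) in Ga13. For Col14a1 it was 0.01 (95% interval -0.20 to 0.22) and 0.10 (95% interval 0.03 to 0.18), and for Col6a1 0.13 (95% interval -0.28 to 0.54) and 0.09 (95% interval -0.01 to 0.19). The Ga13 intervals of these genes lay below the Gaq estimates, and those of Gai were wide for Col3a1 and Col6a1, whose replicate 1 libraries stood apart. No collagen passed for a response that differed between viruses in these fibroblast lines either: 0 of 31 in Gai (0% of all genes, 0 unadjusted) and 0 of 32 in Ga13 (0.0821%, 5 unadjusted, Col5a1, Col11a2, Col14a1, Col20a1 and Col23a1), 0 by DESeq2 in both.

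**Figure D5:**
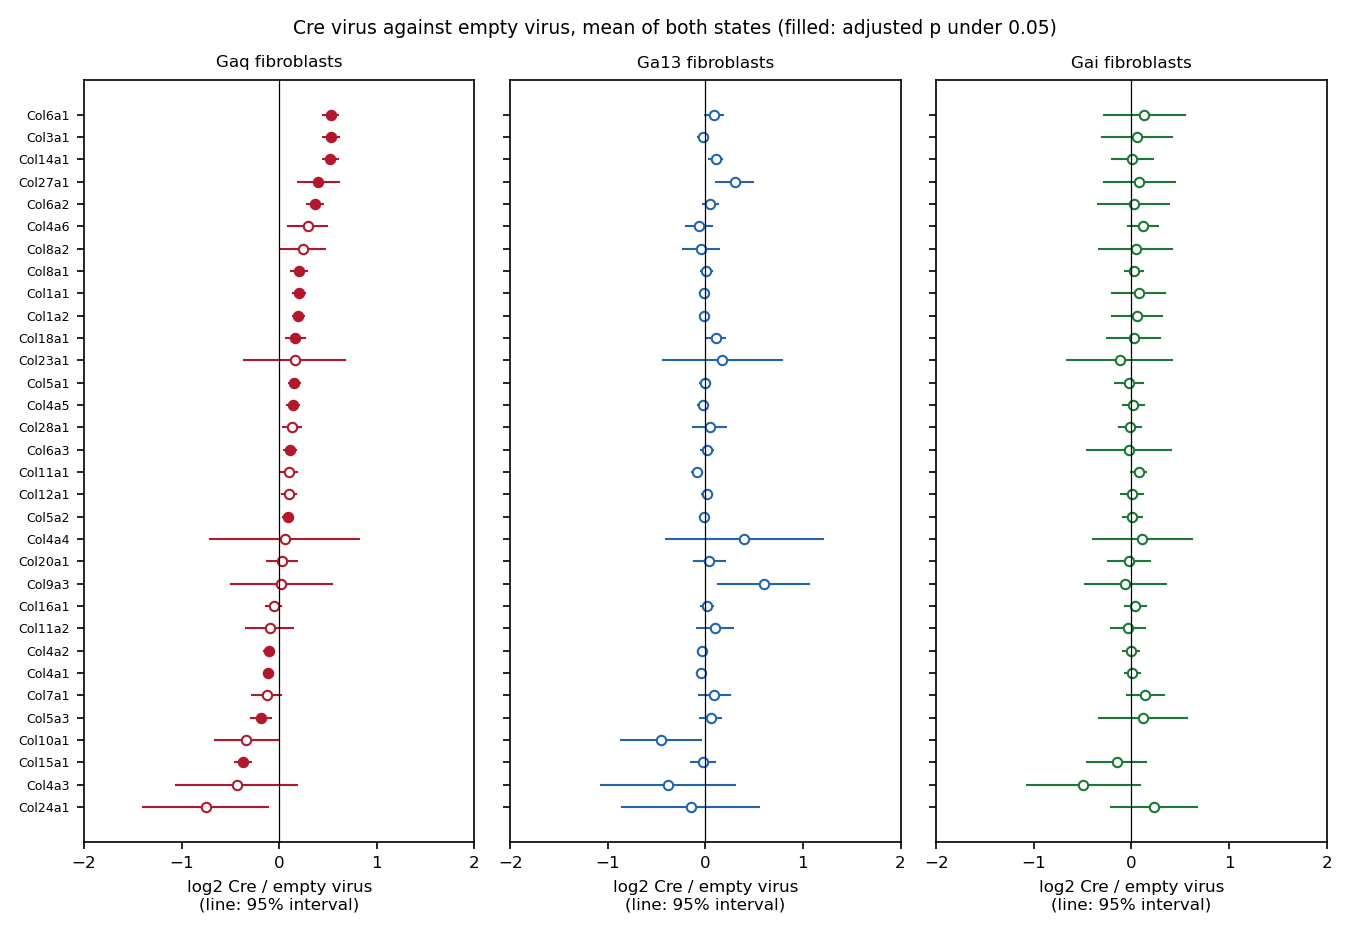
Log2 difference of Cre against empty virus for the tested collagens in the 3 fibroblast lines (horizontal axis, point with its 95% interval, filled where the adjusted p was under 0.05), ordered by the Gaq value. Filled points occur in the Gaq panel only, 17 of 32, and intervals are widest in Gai and for genes with few counts.

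Whether the Cre difference itself differed between lines was tested in a fit of all 36 fibroblast libraries, a comparison added after the data were seen. Between Gaq and Gai 1 of 32 collagens passed (3.12%, against 0.585% of all genes): the Cre difference of Col14a1 was larger in Gaq by 0.52 ± 0.11 log2 units (edgeR adjusted p = 0.0236). This call was lost without replicate 2, without replicate 3 and in a fit of the Gaq and Gai lines alone, where 0 of the collagens passed and 0.384% of all genes did, with edgeR adjusted p-values up to 0.547. Between Gaq and Ga13 0 of 32 passed, where 0.609% of all genes did, with 10 at an unadjusted p under 0.05 and 2 by DESeq2 (Col11a1 and Col14a1). That fit estimates 1 spread over all lines, and for the collagens this includes the gap between Gai replicate 1 and the other Gai libraries. In a fit of the Gaq and Ga13 lines alone 11 of 32 collagens passed (against 2.36% of 16421 genes). For 10 of them the Cre difference was more positive in Gaq. For Col15a1, which fell with Cre in Gaq, it was more negative there, by -0.34 ± 0.08 (edgeR adjusted p = 0.0299). There Col3a1 differed by 0.55 ± 0.06 (edgeR adjusted p = 1.09e-05), Col14a1 by 0.42 ± 0.06 (edgeR adjusted p = 7.81e-06) and Col6a1 by 0.44 ± 0.07 (edgeR adjusted p = 0.000228). In the joint fit the same differences were 0.55 ± 0.16, 0.42 ± 0.11 and 0.44 ± 0.19 (edgeR adjusted p = 0.142, 0.0934 and 0.419).

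The resting level of many collagens differed between the fibroblast lines. Unstimulated empty virus libraries were compared in the fit of 36 libraries, where line, mouse and culture cannot be told apart. Between Gaq and Gai 14 of 32 collagens passed (43.8%), 9 higher and 5 lower in Gaq, against 31.6% of all genes (15.6% higher, 16.0% lower). Between Ga13 and Gai 17 passed (53.1%), 14 higher and 3 lower in Ga13, against 28.5% (14.1% and 14.4%). Between Ga13 and Gaq 11 passed (34.4%), 9 higher and 2 lower in Ga13, against 6.38% (3.33% and 3.04%). The 3 comparisons share groups in pairs.

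Col10a1, the short-chain collagen of hypertrophic cartilage, stood at 0.229, 0.0539 and 0.175 CPM in Gai, 4.01, 5.10 and 2.69 CPM in Gaq and 2.47, 1.75 and 1.27 CPM in Ga13. It was low in all lines and lowest in Gai without overlap, where the libraries held 4, 1 and 3 counts. Col10a1 entered the fit of 36 libraries through its level in the other lines, so no fold or p against Gai is given, and its calls are among the 14 and 17. Col15a1, the multiplexin, stood at 31.3, 16.4 and 23.5 CPM in Gai, 142, 143 and 126 in Gaq and 77.8, 82.0 and 81.5 in Ga13. The 3 lines did not overlap, Gaq being the highest by a log2 difference of 2.47 ± 0.16 against Gai (edgeR adjusted p = 2.84e-12). Col28a1, known from the peripheral nervous system, went the other way, at 135, 132 and 126 CPM in Gai, 54.2, 51.7 and 56.6 in Gaq and 44.9, 45.8 and 54.5 in Ga13. Gai stood above both other lines, which overlapped, with log2 differences of -1.33 ± 0.10 for Gaq and -1.44 ± 0.10 for Ga13 against Gai.

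Among the FACITs, Col14a1 stood at 206, 152 and 164 CPM in Gai, 95.3, 98.1 and 99.9 in Gaq and 154, 147 and 145 in Ga13. Gaq was the lowest, without overlap, and Gai and Ga13 overlapped. The log2 difference was -0.89 ± 0.11 for Gaq against Gai and 0.66 ± 0.11 for Ga13 against Gaq (edgeR adjusted p = 9.37e-07 and 0.000295), the latter lost without replicate 2 (edgeR adjusted p = 0.0537). Col12a1 was also lowest in Gaq, at 1712, 2037 and 1984 CPM in Gai, 1308, 1107 and 1356 in Gaq and 1621, 1649.9 and 1653 in Ga13. The lines did not overlap, and the log2 differences were -0.67 ± 0.07 for Gaq against Gai and 0.44 ± 0.07 for Ga13 against Gaq.

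Of the 10 fibrillar chains tested, 6 had their highest mean in Ga13 (Col1a1, Col1a2, Col3a1, Col5a1, Col5a2 and Col11a1), while Col11a2, Col24a1 and Col27a1 were highest in Gai and Col5a3 in Gaq. Col1a1 was 0.71 ± 0.13 higher there than in Gai and 0.42 ± 0.13 higher than in Gaq (edgeR adjusted p = 0.0001 and 0.0456), and its unstimulated empty virus libraries in the 3 lines did not overlap. Col3a1 was 0.58 ± 0.16 higher in Ga13 than in Gaq (edgeR adjusted p = 0.0321), and Gai, with its high replicate 1, overlapped both. The calls of Col1a1 and Col3a1 for Ga13 against Gaq were lost with no filter on low counts, without replicate 2 and without replicate 3, with edgeR adjusted p-values up to 0.354 and 0.363. The low minor chain Col11a2 was -0.47 ± 0.15 in Ga13 against Gai (edgeR adjusted p = 0.0185), a call lost without replicate 1 or 3. Col11a1, a minor fibril chain, stood at 269.5, 294 and 297 CPM in Gai, 360.0, 354 and 421 in Gaq and 467, 478 and 446 in Ga13. The lines did not overlap, with Ga13 above Gai by 0.69 ± 0.05. Col6a3, a beaded filament chain, stood at 178, 107 and 113 CPM in Gai, 219, 213 and 221 in Gaq and 317, 306 and 307 in Ga13, again without overlap, and was 1.23 ± 0.19 higher in Ga13 than in Gai. Col5a3 stood at 41.3, 46.0 and 39.4 CPM in Gaq against 31.1, 21.8 and 21.6 in Gai and 30.8, 25.6 and 30.2 in Ga13, 0.70 ± 0.20 above Gai (edgeR adjusted p = 0.00937), a call lost without replicate 2 or 3. Beside these levels, the smooth muscle and pericyte markers summed to 3232 to 3698 CPM in the Gai, 1861 to 1976 in the Gaq and 2855 to 3143 in the Ga13 libraries compared, and the 8 endothelium markers to 25.6 to 27.9, 13.9 to 16.6 and 8.01 to 8.39 CPM, with none at 0. The 9 microglia and macrophage markers, none at 0, summed to 131 to 170.1, 62.2 to 79.3 and 33.5 to 43.5 CPM without overlap, and the 9 astrocyte markers, with Aqp4 at 0, to 211 to 259.7, 194 to 198 and 178 to 193 CPM. The 7 fibroblast markers that are no collagens were higher in Ga13 (1988 to 2045 CPM) than in Gai (1751 to 1915) and Gaq (1831 to 1865), and the cartilage, meningeal fibroblast and neuron lists were higher in Gai than in both other lines. Their part was not tested. Leaving out a replicate moved these counts, from 4 collagens without replicate 2 to 15 without replicate 1 for Ga13 against Gaq.

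Members that could not be tested are accounted for as follows. The filter on low counts removed Col10a1, Col24a1 and Col28a1 in the Gas line. In the fibroblasts it removed Col2a1, Col6a4, Col9a1, Col9a2, Col19a1, Col22a1 and Col26a1, and in Gai Col10a1 as well. In the annotation used here exons of 12 of the 39 overlap an exon of another gene, by at most 6.07% of the exon length (Col9a3), including Col3a1, Col4a1, Col4a2, Col5a1, Col10a1 and Col15a1. Counts in those stretches are uncertain.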

How the data were processed

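The authors deposited 1 table of raw read counts per gene for each line. Per the submitters' processing notes, fastp, the Subread aligner, featureCounts and the genome build GRCm39 were used. Their versions, the gene annotation and strandedness are not given in the sources used here.

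Each line (12 libraries) was fitted with 1 mean per group in R 4.3.3 with edgeR 4.0.16 and limma 3.58.1. Steps were filterByExpr, TMM scaling and the robust quasi-likelihood test. The tests were two-sided. A call needed an adjusted p under 0.05 (Benjamini-Hochberg) over all genes tested (18103 in Gas, 15980 in Gai, 15528 in Gaq, 15835 in Ga13, 16749 in the fit of 36 fibroblast libraries). The contrasts were the agonist response averaged over viruses, Cre against empty virus averaged over agonist states, and their interaction. Each log2 difference is given with its standard error (SE). The scripts were tested on simulated data. Transcript lengths came from GENCODE annotation of GRCm38, so no coordinate of the files' build is printed.

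Values per library are given for Col1a1, Col1a2 and Col3a1, for collagens called in a response, for at most 8 per line called for Cre and for at most 6 per pair of lines by resting level. In the other lists at most 4 called genes are named by p in the agonist response. A gene of the TGF-beta list is counted but not reported here by name. The members and lists were chosen with earlier results of these data known. Alternatives were other size factors, scaling without collagens, no filter, DESeq2 1.42.0, the replicate number as a block and leaving out libraries. The comparison of Cre differences between lines, fits without Gai replicate 1 and fits of 2 lines were added after seeing the data.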

Additional observations from a re-analysis of the deposited data

Results flagged for a closer look

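The difference of the Cre effect on Col14a1 between the Gaq and Gai lines was 0.52 log2 units (edgeR adjusted p = 0.0236 in the fit of 36 fibroblast libraries), and it is listed because the same contrast gave different values in 2 lines of the same cell type. All 6 Gaq Cre libraries lay above all 6 Gaq empty virus libraries, at 133 to 156 against 95.3 to 108 CPM, while in Gai the ranges were 161 to 209 and 152 to 220.1 CPM. Of 10 alternatives it kept the call in 7 and lost it in 3 (without replicate 2, without replicate 3 and in a fit of the Gaq and Gai lines alone), with log2 differences from 0.46 to 0.55 and edgeR adjusted p-values up to 0.547.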

How the results depend on the processing

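With other size factors, or with library totals and TMM computed without the collagens, each count of collagens was within 1.5 times the reported one. Of 804 alternative values of 65 called gene results, 717 kept direction and call, 87 kept the direction and lost the call, and 0 reversed. With no filter on low counts the isoproterenol response held 5 collagens, the Gas Cre comparison 1 (Col11a2) and the Gai response 1 (Col20a1). The Cre differences between lines then held 2 (Gaq against Gai) and 3 (Gaq against Ga13), and by DESeq2 the last was 2. Shares of all genes for these settings are not given here.

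The replicate numbers are shared by the groups of a line, and nothing in the labels says that a number marks a shared mouse or culture. Deviations of same-numbered libraries correlated at -0.02 to 0.10 in Gas, 0.03 to 0.37 in Gai, -0.02 to 0.09 in Gaq and -0.01 to 0.09 in Ga13, and 28, 20, 25 and 29 of 36 library and group pairs correlated best with their own number. With the replicate block the collagen counts were 5 for the isoproterenol response, 1, 2 and 2 for the TRAP-6 response in Gai, Gaq and Ga13, 20 for Cre in Gaq (including all 17), 1 for the interaction in Ga13 (Col5a1), and 10 (Gaq against Gai) and 12 (Gaq against Ga13) for the Cre differences between lines. The share of all genes called rose with the block as well, from 23.3% to 24.4% in the isoproterenol response, from 1.12% to 4.99%, 5.61% to 8.14% and 8.38% to 11.4% in the TRAP-6 responses of Gai, Gaq and Ga13, from 6.50% to 8.94% for Cre in Gaq, from 0.0821% to 0.871% for the interaction in Ga13, and from 0.585% to 2.86% and 0.609% to 3.77% for the Cre differences. The calls for those differences thus also turn on whether the shared number is fitted.

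Leaving out 1 library gave 1 to 12 collagens in the isoproterenol response, 0 to 1 for Cre in Gas, 0 to 1 in the Gai response, 0 to 2 in the Gaq response and 12 to 19 for Cre in Gaq. Leaving out a replicate number gave 9 to 16 (Gaq against Gai), 11 to 21 (Ga13 against Gai) and 4 to 15 (Ga13 against Gaq) for resting levels, and 0 to 2 and 0 to 4 for the Cre differences of Gaq against Gai and Ga13. The Gas count was 12 without stimulated Cre replicate 1, the Gas Cre call was Col11a2 without the same library, and the Gai call was Col20a1 without unstimulated empty replicate 1. Without Gai replicate 1 of all groups the Gai response held 6 collagens, Ga13 against Gaq 17, and the Cre differences 4 and 10. In fits of 2 lines Ga13 against Gaq held 17, and the Cre differences held 0 (Gaq against Gai) and 11 (Gaq against Ga13). Of the 17 collagens called for Cre in Gaq, 12 kept the call in all 17 alternatives, and Col5a2, Col5a3, Col6a3, Col18a1 and Col27a1 lost it in some. The causes were not tested. Except where printed above, the shares of all genes called in these fits are not given here, so these counts cannot be set against them. With 3 libraries a group, collagens under about 1 CPM had wide intervals, such as Col24a1 in Gaq.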

Other observations

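Replicate 1 of the Gai line differed from the other replicates in a way that no label describes. In all 4 Gai groups replicate 1 was the highest library for 20 of 31 tested collagens. The like share over all genes was not computed, so whether this is particular to collagens is not shown. Col3a1 averaged 9709 CPM over the replicate 1 libraries and 6701 and 6649 CPM over replicates 2 and 3, a log2 ratio of 0.54 to the mean of the latter. The type VI chains showed a similar gap, with Col6a1 at 185, 119.8 and 121.7 CPM (log2 ratio 0.62) and Col6a3 at 174, 108 and 113 CPM (0.65). Col5a3 stood at 32.3, 20.8 and 19.5 CPM (0.68), Col1a1 at 16777, 12750.4 and 12542 CPM (0.41) and Col14a1 at 211, 168 and 164 CPM (0.34). Col12a1 went the other way, at 1780.2, 1996 and 1988 CPM (-0.16). These are values of libraries that were not compared as groups.

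Set beside each other, the 13 collagens that were higher with Cre in Gaq were all higher in Gai replicate 1 than in the mean of the other replicates, and so were the 4 that were lower with Cre, Col5a3 (0.68), Col15a1 (0.22), Col4a2 (0.08) and Col4a1 (0.06). Most tested collagens that were not called for Cre were higher in Gai replicate 1 as well, so the called ones were not set apart by this. Only Col4a3, Col9a3, Col11a1, Col12a1 and Col23a1 were lower there. The Gaq Cre libraries reached the range of the Ga13 line for some collagens. Col3a1 spanned 8140.0 to 9773 CPM with Cre in Gaq and 8448 to 9543 CPM over all Ga13 libraries, and Col14a1 133 to 156 and 145 to 180.3 CPM. Col1a1 did not reach that range, at 18744 to 20937 against 21310.2 to 23084 CPM.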
